A study of Mus musculus with 12 samples.

Results

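The cytosolic ribosomal proteins are the protein parts of the ribosome that translates nuclear-encoded mRNA. The genes were chosen by name alone: symbols of the Rpl, Rps, Rplp and Rpsa series in the deposited expression table, with names marked as pseudogenes left out. The rule found 84 of the 13190 genes in the table, 49 of the large subunit and 35 of the small subunit. Of these, 77 are core ribosomal proteins and 7 are paralogs or pseudogenes that the naming rule also takes in (Rpl22l1, Rps4l, Rps27l, Rps3a2, Rps3a3, Rpl3l and Rpl7l1). GENCODE annotated 81 of the 84 as protein coding, Rps3a2 and Rps3a3 as processed pseudogenes and Rps4l as a transcribed processed pseudogene. They lie on 19 chromosomes, with at most 14 on one. None was listed at 0 in any library. All 84 passed the filter that defined the 12716 tested genes, an FPKM of 1 or more in 3 or more libraries. FPKM counts fragments per kilobase of transcript, scaled to the size of the library, so levels can be compared between genes.

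The RNA was pulled down with ribosomes from parvalbumin interneurons, the fast-spiking inhibitory cells of the cortex. All mice were C57BL/6 and carried PV-Cre k/+ and RiboTag k/k. RiboTag puts an epitope tag on ribosomal protein Rpl22 in cells that express Cre, so these ribosomes and their mRNA can be precipitated from whole tissue. The 4 groups of 3 libraries were wild type and Nptx2 KO, each kept from weaning for at least 4 weeks in group housing (labelled untreated) or in single housing (labelled as social stress). The tag depends on PV-Cre, so every group reports on cells with a history of parvalbumin expression, and no library made before pulldown was analysed here. The table's columns name the group but no replicate number, so the libraries are called WT group, WT single, KO group and KO single, each with an arbitrary letter from a to c. Nothing in the labels says whether animals were pooled.

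Ribosomal proteins are made in matched amounts, since a ribosome holds nearly all of them in equal numbers, and their mRNAs are among the most abundant in a cell. The large subunit forms peptide bonds, the small subunit reads the mRNA, and the stalk made by Rplp0, Rplp1 and Rplp2 recruits the elongation factors. Many of these mRNAs begin with a run of pyrimidines, the terminal oligopyrimidine tract, through which mTOR signalling and Larp1 control how well they are loaded with ribosomes. In neurons, ribosomal protein mRNAs are also carried into axons and dendrites and translated there.

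The starts of the transcripts are shown because the pyrimidine tract is the feature these genes are known to share, and it was not used to choose them. RefSeq promoter windows on GRCm38.p6 matched 61 of the 84 genes. Each line below gives 15 bases before the annotated start and the first 15 transcribed bases, 5′ to 3′ on the gene's own strand. Capitals mark an unbroken run of at least 5 C or T bases that starts within the first 3 transcribed bases. Genes with such a run come first, and then Rpl22, Rpl7l1, Rps2 and Rpl3l, which had none in the windows shown.
Rps6: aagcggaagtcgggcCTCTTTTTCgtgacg
Rpl15: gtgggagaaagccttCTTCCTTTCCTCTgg
Rpl35: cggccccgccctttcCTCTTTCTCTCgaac
Rpl28: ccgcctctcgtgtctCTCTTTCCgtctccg
Rps10: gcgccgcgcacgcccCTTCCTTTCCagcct
Rps18: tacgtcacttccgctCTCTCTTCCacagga
Rpl22l1: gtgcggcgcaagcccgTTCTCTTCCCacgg
Rpl22: cgctgcttctggaatgttccagctcccact
Rpl7l1: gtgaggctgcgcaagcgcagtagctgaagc
Rps2: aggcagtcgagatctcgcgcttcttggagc
Rpl3l: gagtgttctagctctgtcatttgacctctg
These windows lie at chr4:86857353-86857382 for Rps6, chr14:18270972-18271001 for Rpl15, chr2:39005117-39005146 for Rpl35 and chr17:33955651-33955680 for Rps18, all on the minus strand. Those of Rpl22l1 and Rpl22 lie at chr3:28805493-28805522 and chr4:152324421-152324450 on the plus strand. Rpl28 lies at chr7:4792950-4792979 and Rps2 at chr17:24720048-24720077 on the plus strand, Rpl3l at chr17:24727811-24727840 on the plus strand, and Rps10 at chr17:27635230-27635259 and Rpl7l1 at chr17:46782642-46782671 on the minus strand. A tract at an annotated start stood in 22 of the 61 genes, or 36.1%, and in 3215 of 27025 genes with a RefSeq window, or 11.9%. The first 5 transcribed bases were all C or T in 16 of the 61, or 26.2%, and in 1426 of the 27025, or 5.28%. A gene counted if any of its annotated starts matched. Rpl22 has another window at chr4:152325711-152325740, nearer to its GENCODE start at 152325742, and that window had no such run either. Of the 73 windows of the 61 genes, 59 had their last 30 bases in a GENCODE transcript of the gene, so some annotated starts may lie outside the GENCODE transcripts. A missing run says only that these letters are not at the annotated start.

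As a check on genotype, Nptx2 itself stood at 2.62, 2.34 and 2.31 in WT group a, b and c, at 2.41, 2.41 and 2.23 in WT single, at 2.37, 2.74 and 2.62 in KO group and at 2.68, 2.43 and 2.54 in KO single, on the deposited log2(FPKM + 1) scale. Libraries labelled KO did not have lower levels of it, and in single housing all 3 of them lay above the 3 labelled wild type. The sources used here do not say whether the deleted part of the gene was counted, so every genotype direction below rests on the labels. Parvalbumin interneuron markers were abundant in all 12 libraries: Pvalb was 9.65 to 10.28, Gad1 10.51 to 10.68 and Slc32a1 8.16 to 8.37. All 8 markers of that list passed the filter, with summed levels of 3681 to 3990 FPKM. Summed levels of other lists were 121 to 173 FPKM for 5 excitatory neuron markers, 346 to 764 for 6 markers of other interneurons, 73.3 to 106 for 6 oligodendrocyte markers, 38.7 to 50.7 for 6 astrocyte markers, 21.7 to 32.4 for 8 microglial markers and 3.18 to 5.42 for the 2 endothelial markers in the table. The Y-linked gene Ddx3y was listed at 0 in KO single a and in each group-housed library, and stood at 3.21 to 3.62 in the other 5. Sex and housing therefore cannot be told apart in the wild-type libraries. Among libraries labelled KO, only KO single b and c had Ddx3y above 0, so sex and housing are largely mixed there too. Of the single-housed libraries KO single a alone lacked Ddx3y, so sex is also uneven between the genotypes in single housing. With no counts in the table, depth is unknown.

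Ribosomal protein mRNAs were abundant in parvalbumin interneurons. The median level of the 84 genes was 6.90 on the log2(FPKM + 1) scale, against 3.30 for all tested genes, and 82 of the 84 lay above that overall median. The median was 6.88 for the large subunit and 6.92 for the small subunit. Of the 500 most abundant tested genes 33 were ribosomal proteins, but of the 100 most abundant only 1 was, Rplp1. Together the 84 genes held 2.37% of summed FPKM in KO group c, the lowest library, and 2.89% in KO single a, the highest.

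**Figure D1:**
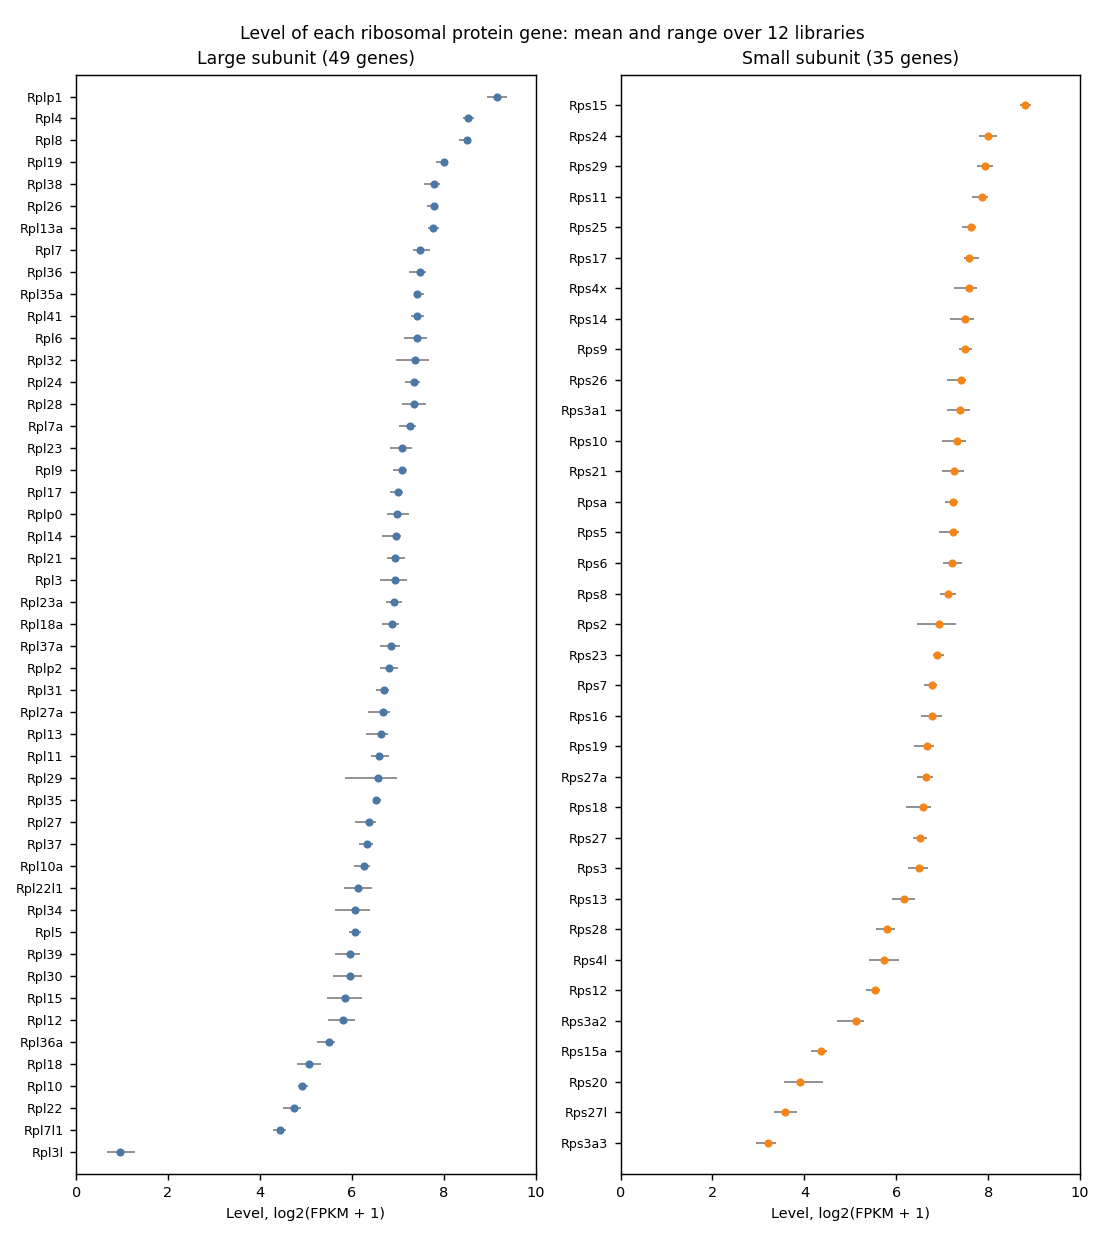
Level of each of the 84 genes on the log2(FPKM + 1) scale, with the large subunit on the left and the small subunit on the right. Dots are means over the 12 libraries and lines run from the lowest to the highest library; Rplp1 leads at 9.15, Rpl3l is lowest at 0.95, and Rpl29 has the longest line.

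The stalk proteins did not stand at one level. Rplp1, an acidic protein of the stalk, was the most abundant of the 84, with a mean of 9.15 or 568 FPKM. Its levels were 9.001, 9.11 and 9.15 in WT group, 9.06, 9.29 and 9.32 in WT single, 9.21, 9.08 and 8.94 in KO group and 9.38, 9.14 and 9.09 in KO single, so the groups overlapped. Rplp2, its acidic partner, averaged 6.80, or 111 FPKM, and Rplp0, which anchors both to the ribosome, 6.99, or 127 FPKM. After Rplp1 came Rps15, a small subunit protein, at 8.80, Rpl4, which lines the peptide exit tunnel, at 8.51, and Rpl8, a large subunit protein, at 8.51. The last 2 did not differ beyond their spread over libraries.

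At the lower end, Rpl3l, the muscle paralog of Rpl3, averaged 0.95, or 0.954 FPKM, and ranged from 0.67 to 1.29. The pseudogene Rps3a3 followed at 3.20, then Rps27l, a paralog of Rps27, at 3.57 and Rps20, the lowest core protein, at 3.91. Core genes thus spanned a 40.0-fold range of mean FPKM, although their proteins enter the ribosome in nearly equal numbers. Rpsa, the laminin receptor protein of the small subunit, averaged 7.24, and Rps6, whose phosphorylation is a common readout of mTOR signalling, 7.22.

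Paralog pairs differed in which member was higher. Rpl22, the protein that carries the RiboTag epitope, stood at 4.72, 4.68 and 4.70 in WT group, 4.65, 4.79 and 4.90 in WT single, 4.86, 4.74 and 4.51 in KO group and 4.64 to 4.86 in KO single. Its paralog Rpl22l1 stood at 6.19, 5.98 and 6.02 in WT group, 5.99, 6.37 and 6.33 in WT single, 6.11, 6.26 and 5.82 in KO group and 6.43, 5.94 and 6.09 in KO single. Rpl22l1 was above Rpl22 in each of the 12 libraries, with means of 69.5 and 25.6 FPKM. In the other pairs the core gene was higher: Rpl3 at 6.93 against Rpl3l at 0.95, Rpl7 at 7.49 against Rpl7l1 at 4.44, Rps27 at 6.52 against Rps27l at 3.57, and the X-linked Rps4x at 7.58 against Rps4l at 5.73. Rpl10 averaged 4.91 and Rpl39 averaged 5.96. The naming rule would have taken in their paralogs Rpl10l and Rpl39l, but neither name was in the deposited expression table.

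Ribosomal protein genes have many near-identical processed copies in the mouse genome, and reads can be shared among them. With a copy taken as a GENCODE transcript at least 95% identical over at least 50% of the member's mRNA, 63 of the 84 had an annotated copy and 59 had one in the table. Rpl7a had the most, with 37 annotated. In 27 genes the copies summed to more FPKM than the gene itself. These include the pseudogenes Rps3a2 and Rps3a3, for which the core gene Rps3a1 was itself counted as a copy. The 218 copies in the table outside the 84 held 31.4% to 33.6% of the joint FPKM, depending on the library. Levels such as that of Rpl15 or Rpl10, whose copies held 73.5% and 81.7% of their joint FPKM, are therefore uncertain as levels of the gene.

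The median SD of the 84 genes over the 12 libraries was 0.114 on the log2 scale. It was 0.0937 in the 3719 other tested genes with a level of at least 4.38. That is a lower bound only, and levels were not matched, since just 4.84% of tested genes lay above the median ribosomal protein gene. The steadiest were Rpl35 with an SD of 0.0588, Rpl35a with 0.0608 and Rpl19 with 0.0647, all of the large subunit. Rpl35, for example, ran from 6.45 in KO group c to 6.63 in KO single a. The most variable were Rpl29 with an SD of 0.446, Rps2 with 0.248 and Rpl34 with 0.239. Rpl34, a large subunit protein, stood at 6.40, 6.20 and 5.93 in WT group, 5.64, 6.15 and 6.15 in WT single, 6.27, 5.95 and 5.81 in KO group and 6.34, 5.83 and 6.23 in KO single. All 4 groups overlapped.

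Many of the 84 genes deviated together in the same libraries. KO group c held the lowest value of 57 of the 84 genes, and 81 of them were below their own mean there. KO single a held the highest value of 39, and KO group a of 19. WT single a held the lowest of 13. The mean deviation of the 84 genes from their own means was -0.20 in KO group c, -0.10 in WT single a, 0.08 in KO group a and 0.12 in KO single a, on the log2 scale. The other 8 libraries lay between -0.01 and 0.04. Both subunits took part: the large and small subunits deviated by -0.21 and -0.20 in KO group c and by 0.11 and 0.13 in KO single a. Rps18, a small subunit protein, shows the pattern: it stood at 6.22 in KO group c, 6.74 in KO single a and 6.49 to 6.71 elsewhere.

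**Figure D2:**
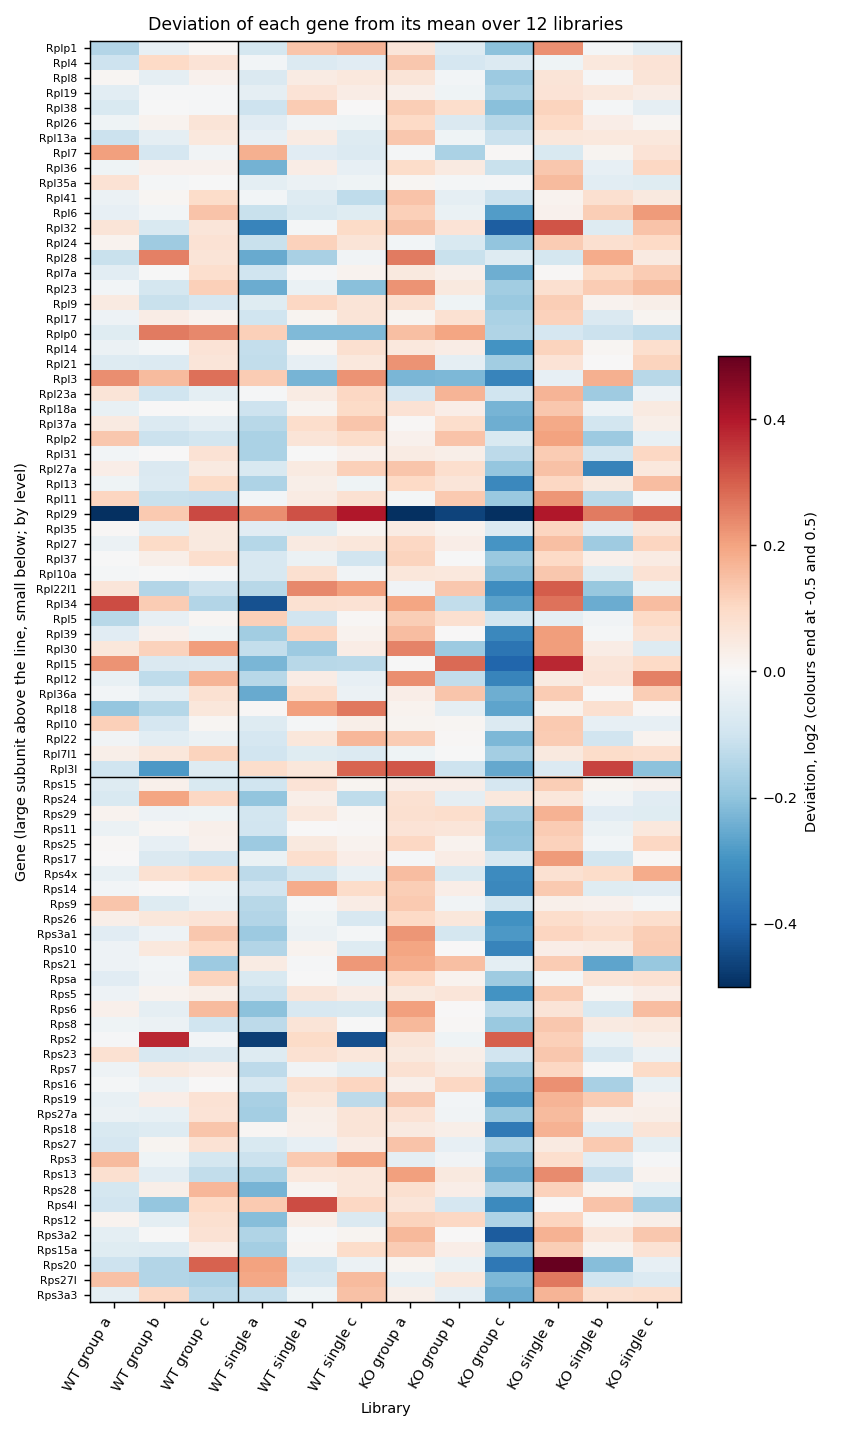
Deviation of each of the 84 genes (rows, large subunit above and small subunit below the line, each by falling level) from its mean over 12 libraries (columns, by group), on the log2 scale. The column of KO group c is blue in 81 of 84 rows and that of KO single a is red in most, while the rows of Rpl29, Rps2 and Rpl3 follow patterns of their own.

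The groups did not separate on this measure. KO group alone ran from -0.20 to 0.08, a span that held every wild-type library, and KO single ran from -0.01 to 0.12. The mean deviation was 0.004 ± 0.027 in WT group, -0.016 ± 0.070 in WT single, -0.039 ± 0.147 in KO group and 0.051 ± 0.065 in KO single (SD, n = 3 each), and the groups overlapped. The pooled SD between replicates was 0.0887. Fewer ribosomes loaded with these mRNAs and less of the mRNA in the cells cannot be told apart in bulk pulldown libraries, nor can fewer cells of a type and less RNA per cell.

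Several other lists were measured in the same libraries. The 218 near-identical copies deviated by -0.28 in KO group c and by 0.17 in KO single a, so summing each gene with its copies kept the order, at -0.22 and 0.13. The 417 other tested genes with an mRNA under 1000 nucleotides deviated by -0.06 and 0.10, and the 81 mitochondrial ribosomal protein genes by -0.05 and 0.09. In WT group b, however, both of those lists were at -0.07 while the cytosolic ribosomal proteins were at -0.01, and in KO group a they were at -0.01 and 0.02 against 0.08. The 52 translation partners, which are initiation, elongation and termination factors and associated proteins, stood at -0.03 and -0.01 in KO group c and KO single a, and the 47 ribosome biogenesis genes at 0.05 and -0.05. The part of mRNA length in these deviations was not tested.

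**Figure D3:**
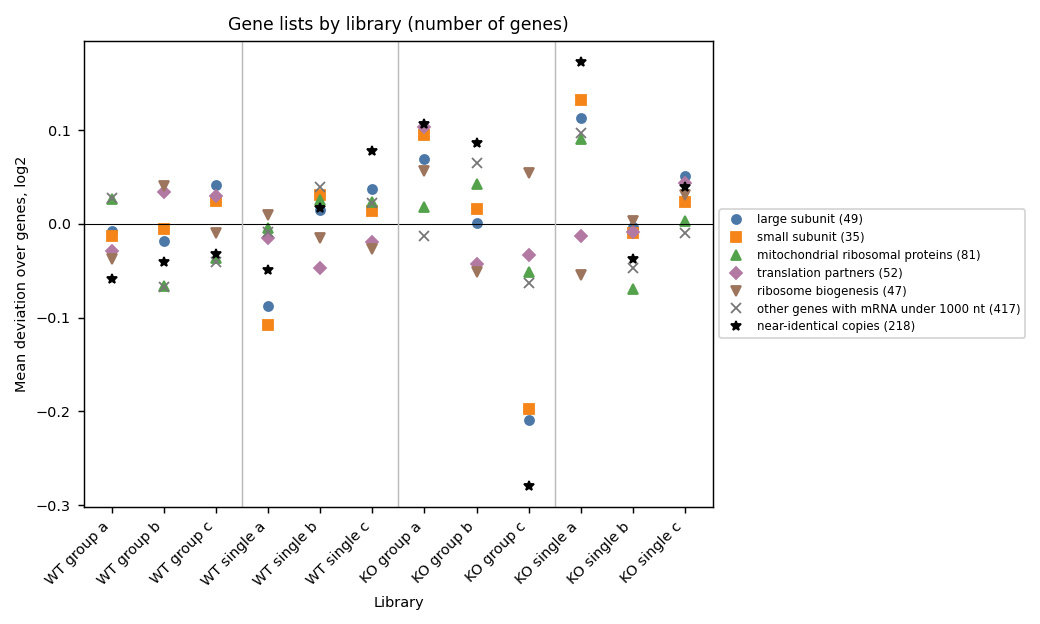
Mean deviation of gene lists (y axis, log2) in each of the 12 libraries (x axis), where each point is the mean over the listed genes of their deviation from their own means. Large and small subunits and the copies sit together at the bottom in KO group c, at -0.21, -0.20 and -0.28, and at the top in KO single a. In these 2 libraries translation partners lie at -0.03 and -0.01, and ribosome biogenesis genes on the other side of 0, at 0.05 and -0.05.

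Marker lists of other cells were set beside the same pair of libraries. In KO group c and KO single a, markers deviated by -0.03 and 0.03 for parvalbumin interneurons, -0.12 and -0.04 for other interneurons, 0.13 and -0.28 for excitatory neurons, -0.08 and -0.07 for astrocytes, -0.17 and -0.004 for oligodendrocytes and -0.07 and -0.10 for microglia. Endothelial markers deviated by -0.24 and -0.06. Of these lists the parvalbumin and excitatory ones took opposite signs in the pair by these means. By the median over markers the parvalbumin list turned, at 0.06 in KO group c and -0.03 in KO single a. By that median excitatory neurons stood at 0.06 and -0.24 and other interneurons at -0.16 and 0.01. None of these lists had a marker at 0 in any library. Their part in the result was not tested. Amino acid response genes split the libraries in another way: they were high in WT group b and c, KO group a and KO single b and c, where the ribosomal proteins deviated by -0.01, 0.03, 0.08, -0.01 and 0.04. In the libraries where they were low, ribosomal proteins deviated by -0.01 in WT group a, -0.10, 0.02 and 0.03 in WT single, 0.01 and -0.20 in KO group b and c and 0.12 in KO single a.

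Single housing in wild type was compared first. No ribosomal protein gene passed the threshold (adjusted p under 0.05), and 0.0393% of all tested genes did. At an unadjusted p under 0.05, 1 gene was higher and 2 were lower, where 5.91% and 6.36% of all tested genes were. Values were higher in 37 and lower in 47 of the 84, where 50.9% and 49% of all tested genes were. The median difference was -0.02, against 0.003 over all tested genes. Without WT single a the count of higher genes was 49 and the median 0.02, and with a term for Y-linked signal the median was 0.0844. In wild type that signal goes with housing in each library, so the term was set by KO single alone.

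The members with the smallest p-values went both ways. Rpl18, a large subunit protein, differed by 0.25 ± 0.09 (SE) and Rps4l by 0.25 ± 0.12, with adjusted p of 0.331 and 0.427. Among the lower ones, Rpl7l1 differed by -0.14, Rps2 by -0.39 and Rps24, a small subunit protein mutated in Diamond-Blackfan anaemia, by -0.17, with adjusted p of 0.318, 0.373 and 0.409. All 3 single-housed libraries lay above all 3 group-housed ones in 3 genes (Rps4l, Rpl3l and Rps21) and below them in 9 (Rpl7l1, Rps6, Rpl30, Rpl37, Rps26, Rps4x, Rpl15, Rpl6 and Rpl35a), where 10.4% and 11.5% of all tested genes did so. Rps6 stood at 7.18 to 7.38 in WT group and 7.01 to 7.14 in WT single, a difference of -0.17 ± 0.09 with an adjusted p of 0.478. Of the stalk proteins, Rplp0 differed by -0.25 ± 0.12, Rplp1 by 0.13 ± 0.10 and Rplp2 by 0.02 ± 0.11.

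In libraries labelled KO, more of the 84 genes were higher in single housing. Again none passed the threshold, and 0.00786% of all tested genes did. At an unadjusted p under 0.05, 4 were higher and 0 lower, where 2.34% and 2.01% of all tested genes were. Values were higher in 76 of 84 genes, or 90.5%, and lower in 8, where 50.3% and 49.6% of all tested genes were. The large subunit contributed 44 of 49 and the small subunit 32 of 35. The median difference was 0.08, while the replicate SD of the mean deviation, for single libraries and not for a difference of group means, was 0.0887. This count rested on KO group c: without it 45 genes were higher and the median was 0.003, without KO single a 59 were higher and the median was 0.06, and without both KO group c and KO single a only 26 were higher and the median was -0.03.

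In 6 genes all 3 single-housed libraries lay above all 3 group-housed ones, or 7.14% against 3.47% of all tested genes: Rpl29, Rpl7l1, Rpl24, Rpl3, Rpl19 and the pseudogene Rps3a3. They lay below in 0 genes, against 3.33%. Rpl24, a large subunit protein at the bridge between subunits, stood at 7.35, 7.29 and 7.16 in KO group and 7.49, 7.44 and 7.46 in KO single. Its difference was 0.20 ± 0.08, with an adjusted p of 0.995. Among the 8 lower genes Rps21, a small subunit protein, differed by -0.20 ± 0.11, Rplp0 by -0.17 ± 0.12 and Rps2 by -0.08 ± 0.16.

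**Figure D4:**
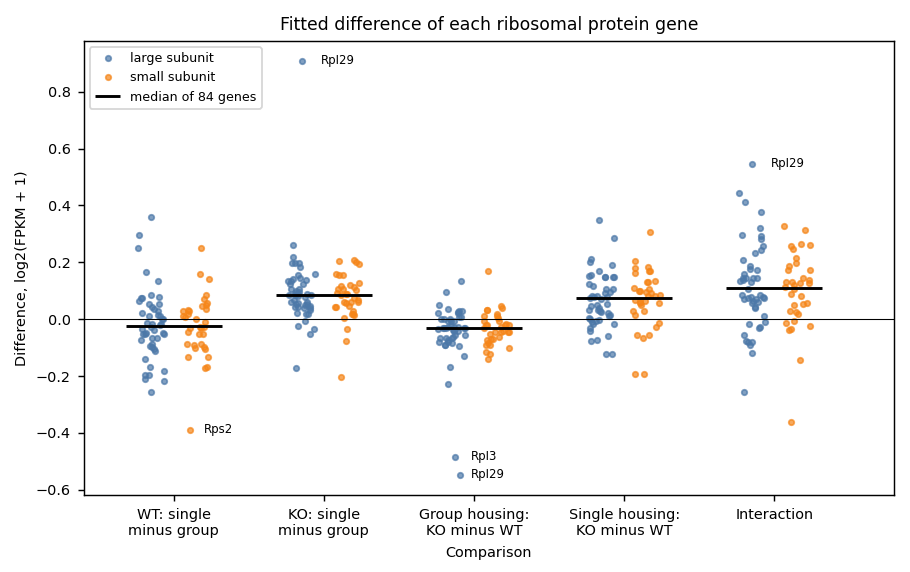
Fitted difference of each of the 84 genes (y axis, on the log2(FPKM + 1) scale) in the 4 comparisons and the interaction (x axis). Blue points are the large subunit, orange points the small subunit and black bars the median over 84 genes, from -0.03 to 0.11; Rpl29 lies farthest out, at 0.91 with single housing in KO, followed by Rpl3 at -0.48 between genotypes in group housing.

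Libraries labelled KO were then compared with those labelled wild type in each housing condition, and the direction rests on labels that the Nptx2 level did not bear out. In group housing no ribosomal protein gene passed, and 0% of all tested genes did. At an unadjusted p under 0.05, 0 were higher and 3 lower, where 1.78% and 1.88% of all tested genes were. The groups did not overlap in 0 higher and 2 lower genes, Rpl3 and Rpl7l1, against 3.15% and 3.86% of all tested genes. Values were higher in 23 and lower in 61, where 48.1% and 51.8% of all tested genes were, and the median was -0.03. Without KO group c, 69 were higher and the median was 0.05. Without KO group a, 8 were higher, and without KO group b, 15. The higher genes with the smallest p were Rps21 with a difference of 0.17, Rpl5, which binds Mdm2 together with Rpl11, with 0.09, and Rpl3l with 0.13, and each had an adjusted p of 1.

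In single housing none passed either, and 0.0393% of all tested genes did. At an unadjusted p under 0.05, 3 were higher and 0 lower, where 4.07% and 3.86% of all tested genes were. Values were higher in 65 and lower in 19, where 49% and 50.9% of all tested genes were, and the median was 0.07. In 16 genes, or 19%, all 3 libraries labelled KO lay above all 3 labelled wild type, where 7.72% of all tested genes did so. In 0 did they lie below, against 8.06%. The 16 were Rpl23, Rpl7l1, Rpl15, Rpl6, Rpl41, Rpl37, Rpl13, Rpl26, Rpl12 and Rpl13a of the large subunit and Rps4x, Rps7, Rps26, Rps3a1, Rps3a2 and Rps10 of the small subunit. Rpl23, a large subunit protein, stood at 6.84, 7.05 and 6.88 in WT single and 7.17, 7.21 and 7.24 in KO single, a difference of 0.28 ± 0.10 with an adjusted p of 0.567. Rpl15 stood at 5.62, 5.71 and 5.71 and at 6.22, 5.91 and 5.94, a difference of 0.35 ± 0.16 with an adjusted p of 0.621. Its copies held 73.5% of the joint FPKM, and with them summed the difference was 0.18 ± 0.10. Without KO single a, and likewise without WT single a, 53 genes were higher. The lower genes with the smallest p were Rps21, Rps4l and Rpl18, with differences of -0.19, -0.19 and -0.12.

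The interaction asks whether the housing difference was larger in libraries labelled KO. No ribosomal protein gene passed, and 0.00786% of all tested genes did. At an unadjusted p under 0.05, 4 were positive and 1 negative, where 4.14% and 3.57% of all tested genes were. The estimate was positive in 66 of 84, where 50% of all tested genes were, with a median of 0.11. Without KO group c it was positive in 51 with a median of 0.03, and without both KO group c and KO single a in 42 with a median of 0.001. Rps4x differed by 0.33 ± 0.14 and Rps21 by -0.36 ± 0.15, both with an adjusted p of 0.646. In the authors' deposited table of wild type against KO, 0 of the 84 genes passed in either housing condition. The lowest adjusted p was 0.792 in the group-housed comparison and 0.591 in the other. The share of all genes that passed there was not counted, so this 0 is not a result about ribosomal proteins.

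Rpl7l1, a relative of the large subunit protein Rpl7, had the smallest p of the 84 in the interaction. It lies at chr17, its start is printed above, and no near-identical copy of it was in the table. Its levels were 4.47, 4.50 and 4.56 in WT group and 4.35, 4.38 and 4.38 in WT single, and 4.42, 4.44 and 4.28 in KO group and 4.49, 4.53 and 4.53 in KO single. Single-housed libraries thus lay below group-housed ones in wild type and above them in libraries labelled KO, without overlap in either. The interaction was 0.28 ± 0.07 with an unadjusted p of 0.00308, and it did not pass, with an adjusted p of 0.646. Of all tested genes 65, or 0.511%, had housing differences that were opposite and without overlap in this way.

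For the tagged protein no difference was detectable. Rpl22 differed by 0.08 (95% interval -0.13 to 0.29) with single housing in wild type and by 0.05 (-0.16 to 0.26) in KO. Between genotypes it differed by 0.0004 (-0.21 to 0.21) in group housing and by -0.03 (-0.24 to 0.18) in single housing. The intervals of Rpl22l1 were wider: 0.17 (-0.17 to 0.51) and 0.09 (-0.25 to 0.43) with single housing, and 0.002 (-0.34 to 0.34) and -0.08 (-0.41 to 0.26) between genotypes. These intervals do not show that the groups were alike.

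Rpl29, a basic large subunit protein, had the largest SD, and its low values took in the whole KO group and 1 library of WT group. The gene lies at chr9:106429454-106431568 on GRCm38. Its levels were 5.98, 6.71 and 6.91 in WT group a, b and c, 6.81, 6.89 and 6.98 in WT single, 6.00, 6.11 and 5.84 in KO group and 6.97, 6.83 and 6.87 in KO single. WT group a and the 3 KO group libraries were thus between 5.84 and 6.11, and the other 8 between 6.71 and 6.98, with nothing between. The fitted difference was 0.91 ± 0.19 with single housing in libraries labelled KO (unadjusted p = 0.000705, adjusted p = 0.583) and -0.55 ± 0.19 for KO against wild type in group housing (adjusted p = 1). It passed the threshold with single housing in KO when only the compared groups entered the fit (adjusted p = 0.0269) or without WT group a (adjusted p = 0.00309), and without WT group a also for KO in group housing (-0.82, adjusted p = 0.0137).

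The near-identical copies of Rpl29 showed the reverse in sum, though not each of them. The 12 copies in the table summed to 7.11 to 7.36 in the same 4 libraries and to 5.83 to 6.16 in the other 8. One by one, 4 of the 12 (Gm14036, Gm13841, Gm8210 and Gm6344) lay above the other 8 libraries in the 4 without overlap, 2 (Gm10709 and Gm17669) lay below as Rpl29 did, and 6 overlapped. Gm14036, a processed pseudogene on chromosome 2, stood at 5.20 to 5.48 in the 4 and 2.72 to 3.04 in the 8, and Gm8210 on chromosome 1 at 5.16 to 5.27 and 3.09 to 3.35. With Rpl29 and its copies summed, the SD over libraries fell from 0.446 to 0.156, and the difference with single housing in KO was -0.24 ± 0.10 in place of 0.91. For KO in group housing it was 0.23 in place of -0.55. Summing was chosen after these values were seen, and FPKM of genes of unequal length do not add up to reads.

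Each gene was also set beside the tested genes whose pattern over the 12 libraries was most like or most opposite to its own, a step added after the values were seen. Of the 20 genes with the largest absolute Pearson correlation, those within 5 Mb were counted. Distances here and below run between the lower coordinates of the genes. Depending on the ribosomal protein gene, 0.0316% to 1.41% of all tested genes lay within that span. Of the 20, none was that near for 71 of the 84 genes, 1 for 9, 2 for Rpl29 and Rpl30, 6 for Rpl3 and 7 for Rps2. For Rpl29 these were Mrpl3, a mitochondrial ribosomal protein 1.38 Mb away, and Poc1a, a centriole protein 0.15 Mb away, with correlations of 0.97 and 0.92 over the 12 libraries. Mrpl3 was 4.45 to 4.59 in WT group a and the KO group libraries and 4.86 to 5.01 in the other 8.

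Rps2, a small subunit protein at chr17:24718116-24721929, split the libraries differently. Its levels were 6.92, 7.30 and 6.91 in WT group, 6.45, 7.02 and 6.48 in WT single, 6.99, 6.90 and 7.22 in KO group and 7.04, 6.89 and 6.95 in KO single. WT group b and KO group c were high, WT single a and c were low, and the other 8 lay between 6.89 and 7.04. Its 14 copies, summed, moved the other way, at 6.66 and 6.45 in the high pair, 7.63 and 7.85 in the low pair and 7.32 to 7.51 elsewhere. One by one, 12 of the 14 were below all other libraries in the high pair, and 5 were above all others in the low pair. With Rps2 and its copies summed, the difference with single housing in wild type was 0.15 ± 0.09 in place of -0.39 ± 0.16.

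Of the 20 genes closest to the Rps2 pattern 7 lay within 5 Mb, where 1.32% of tested genes lie. Rnps1, a splicing regulator 0.3 Mb away, stood at 6.23 in both high libraries, 5.44 and 5.29 in the low ones and 5.75 to 5.90 elsewhere. Pkmyt1, a cell cycle kinase, stood at 2.30 and 2.15, 1.41 and 1.28, and 1.69 to 1.89. Hcfc1r1 ran opposite, at 6.99 and 7.15 in the high pair and 7.95 and 7.92 in the low pair. The other 4 were Zfp945, Decr2, Gm4944 and 3110052M02Rik.

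Rpl3, a large subunit protein near the peptidyl transferase centre, split the libraries in another way again. It lies at chr15:80077791-80091868. Its levels were 7.17, 7.09 and 7.21 in WT group, 7.06, 6.70 and 7.16 in WT single, 6.71, 6.71 and 6.60 in KO group and 6.89, 7.11 and 6.80 in KO single. The 3 KO group libraries and WT single b were lowest. The difference between KO and wild type in group housing was -0.48 ± 0.11 (unadjusted p = 0.00152, adjusted p = 0.900), the groups did not overlap, and with its 6 copies summed it was -0.15 ± 0.07. The 6 nearby genes of like or opposite pattern were Cyb5r3, Rrp7a, Cbx7, Pdgfb, Pnpla3 and A730060N03Rik, where 1.3% of tested genes lie within 5 Mb. Cbx7, a Polycomb protein 0.16 Mb away, stood at 4.30 to 4.47 in WT group and 3.84 to 4.06 in KO group, and at 3.99 in WT single b against 4.14 and 4.28 in the other WT single libraries. What the genes near Rpl29, Rps2 and Rpl3 share besides position was not tested.

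**Figure D5:**
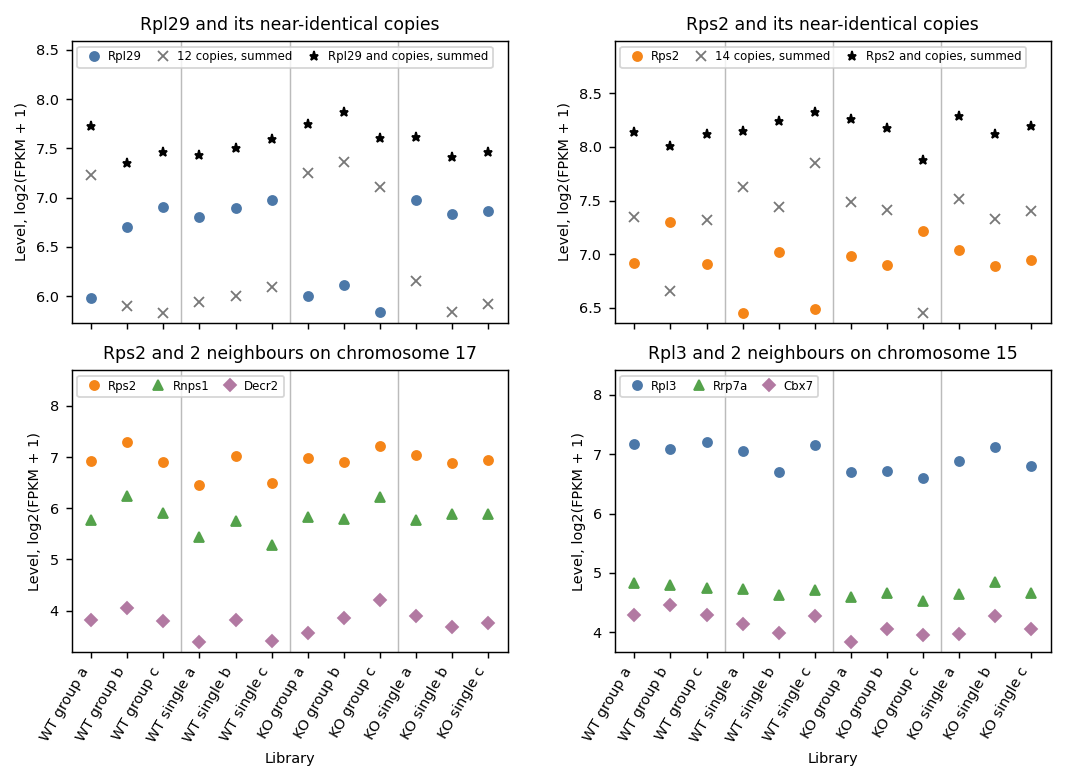
Levels (y axes, log2(FPKM + 1)) in each of the 12 libraries (x axes) of Rpl29 and Rps2 beside their near-identical copies (upper panels) and of Rps2 and Rpl3 beside 2 neighbouring genes each (lower panels). Rpl29 lies below 6.2 and its copies above 7.1 in WT group a and the 3 KO group libraries, Rps2 and Rnps1 are high in WT group b and KO group c, and Rpl3 and Cbx7 are lower in KO group than in WT group.

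Among the genes that work with the ribosome, none of the 52 translation partners and none of the 47 biogenesis genes passed in any comparison. At most 0.0393% of all tested genes did. With single housing 50.9% of all tested genes were higher in wild type and 50.3% in KO. For KO against wild type 48.1% were higher in group housing and 49% in single housing. Of the partners, 20 were higher and 32 lower with single housing in wild type and 29 and 23 in KO. For KO against wild type 19 partners were higher and 33 lower in group housing, and 36 and 16 in single housing. Eif2s3x, the X-linked subunit of the initiation factor that brings in the first tRNA, had the smallest p of these genes, with -0.68 ± 0.12 in wild type (adjusted p = 0.193) and -0.41 ± 0.12 in KO (adjusted p = 0.995) for single housing, and Ddx3y was above 0 in single-housed libraries alone. Eif2s2, another subunit of that factor, differed by 0.28 ± 0.10 with single housing in KO, and Eif3b, of the initiation complex on the small subunit, by 0.15 ± 0.04 between genotypes in single housing. Eef1a1, which delivers aminoacyl-tRNA, differed by 0.28 ± 0.13 in that last comparison.

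Of the biogenesis genes, 22 were higher and 25 lower with single housing in wild type, and 19 and 28 in KO. Between genotypes 28 were higher and 19 lower in group housing, and 25 and 22 in single housing. The shares of all tested genes given above apply here too. Imp4, of the complex that processes small subunit rRNA, differed by -0.23 ± 0.07 and fibrillarin (Fbl), an rRNA methyltransferase, by -0.17 ± 0.08 with single housing in wild type. The nucleolar GTPase Gnl3 differed by 0.14 ± 0.05 between genotypes in group housing and by -0.11 ± 0.05 with single housing in KO. The medians of both lists lay between -0.02 and 0.03 in the 4 comparisons, against 0.08 for ribosomal proteins with single housing in KO.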

How the data were processed

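Ribosome-associated RNA was sequenced from 12 libraries in 4 groups of 3, from a strand-marking mRNA kit, per the labels' protocols. The submitters' processing notes list HISAT2, StringTie, limma and the GRCm38 build. The sources used here give neither versions nor strand settings. The authors deposited log2(FPKM + 1) values with no counts, so depth is unknown. These values were quantile normalized before deposit, as tested on the values: each library sums to 412903 FPKM and a sorted value spreads by at most 0.0351 log2, so a change in total mRNA cannot be seen. The p-values and the score columns (moderated t and F) of the authors' deposited table were used only where named. No library pair was identical.

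A mean per group was fitted with limma 3.58.1 in R 4.3.3 (eBayes with a trend, on 8 residual plus 2.18 prior degrees of freedom) where FPKM reached 1 in 3 or more libraries, with Benjamini-Hochberg adjustment over 12716 genes and a threshold of 0.05. All comparisons share the 4 groups. A difference on the log2(FPKM + 1) scale understates changes of low genes. The fit was tested on simulated data. Copies were found with BLAST 2.17.0 in GENCODE M21 transcripts. Replicates are biological per the labels. The members, the gene lists and the neighbour and copy steps were chosen with earlier results of these data known. Genes were named by rule: Rpl22, paralog pairs, stalk proteins, Rps6, Rpsa, the 4 highest and lowest levels and the 3 largest and smallest SDs. The rule also took the 3 smallest p-values per direction and comparison. For the other lists it took the 3 smallest p-values per comparison, of which only some are described here. Rps18, Rpl19 as an example without overlap, and the neighbours and copies were named after their values were seen.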

Additional observations from a re-analysis of the deposited data

Results flagged for a closer look

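Rpl7l1 was the 1 result of the 84 ribosomal protein genes and 5 comparisons marked because effects differed between groups. The housing difference was -0.14 in wild type and 0.14 in libraries labelled KO, and KO differed from wild type by -0.13 when group-housed and by 0.15 when single-housed, each without overlap of the 3 libraries on either side. The difference between the 2 housing effects, which is also that between the 2 genotype effects, was 0.28 by limma's interaction term (unadjusted p = 0.00308, adjusted p = 0.646), so it did not pass the correction. Groups of 3 are too small for the check on single outlying samples.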

How the results depend on the processing

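The fits were repeated with 2 other filters, another pseudocount, no variance trend, only the compared groups, recentred libraries, a term for Y-linked signal and each library left out, and, chosen after seeing the data, without both KO group c and KO single a and with copies summed. No paired analysis was possible because the columns of the table carry no replicate number. The count of members past the threshold was 0 except for 1 (Rpl29) with single housing in KO when only the compared groups entered. Leaving out 1 library gave 0 to 1 there and 0 to 1 for KO in group housing, 45 to 78 higher members with single housing in KO and 8 to 69 for KO in group housing. Without both KO group c and KO single a, the higher members were 26 with single housing in KO (median -0.0316), 69 for KO in group housing and 42 in the interaction (median 0.0012). With the Y-linked term the median with single housing in wild type was 0.0844. Signs turned for Rps21 (0.0316) and Rps2 (0.0045) with single housing in KO under the Y-linked term, for Rpl3l for KO in group housing without KO group a (-0.0308, with 0.253 at the other end of that range) and for Rps2 with single housing in KO without KO group c (0.0147, with -0.144 at the other end). With copies summed they turned for Rpl29 (-0.0022 with single housing in wild type, -0.241 in KO, 0.225 for KO in group housing), Rps2 (0.147 and 0.0978 with single housing) and Rpl5 (-0.0135 for KO in group housing). The cause was not tested.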

Other observations

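The mitochondrial ribosome is built from its own set of nuclear-encoded proteins, and 81 of these genes were tested. None passed the threshold in any comparison, where at most 0.0393% of all tested genes did. With single housing in wild type 48 were higher and 33 lower, where 50.9% and 49% of all tested genes were. The median difference was 0.02. At an unadjusted p under 0.05, 9 were higher and 3 lower, where 5.91% and 6.36% of all tested genes were. In libraries labelled KO 46 were higher and 35 lower, where 50.3% and 49.6% of all tested genes were, with a median of 0.01. Between genotypes 46 were higher in group housing and 39 in single housing, with medians of 0.02 and -0.02. Of all tested genes 48.1% and 49% were higher there. In the comparison where 76 of 84 cytosolic ribosomal protein genes had higher values, single housing in libraries labelled KO, the 2 sets thus had medians of 0.08 and 0.01.

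Among the cytosolic genes with 1 nearby gene of like or opposite pattern, Rpl12 stood beside Lrsam1 (Pearson correlation -0.92 over 12 libraries). Their lower coordinates lie 0.0363 Mb apart. Lrsam1 ends at chr2:32961614 and Rpl12 begins at chr2:32961559, so the annotated genes overlap. Of all tested genes, 0.995% lie within 5 Mb of Rpl12. Rpl30 had 2, Polr2k and Cthrc1, on chromosome 15, where 0.332% of tested genes lie within 5 Mb of it. Whether such small counts exceed those of other genes was not tested.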
